A study of Homo sapiens with 18 samples.

Results

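NAT10 and THUMPD1 are the 2 genes described here, out of 61860 genes in the count table. Their rows were found by gene symbol, and each symbol matched 1 row of the count table and 1 row of the half-life table. NAT10 is the enzyme that writes N4-acetylcytidine (ac4C), an acetyl mark on cytidine, in ribosomal, transfer and messenger RNA. It has an acetyltransferase domain and an ATP-using helicase-like domain, and most of the protein is in the nucleolus, where ribosomes are made. THUMPD1 has no catalytic activity of its own. It holds tRNA through its THUMP domain and is the adaptor that NAT10 needs to acetylate serine and leucine tRNAs.

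The cells were H1, an established line of human embryonic stem cells, transduced with lentivirus carrying a GFP marker and an shRNA against NAT10 (KD) or a negative control shRNA (CTL). GFP-positive cells of both kinds were enriched and expanded under puromycin, so each genotype is a bulk population and not a clone. Actinomycin D was used to stop transcription, and polyadenylated RNA was collected after 0, 1.5 and 3.5 h, with 3 libraries in each of the 6 groups and 18 in all. Whether the libraries of a group stem from separate cultures is not stated, and p-values therefore cover the spread among these samples alone, which may be technical.

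Library totals ran from 15037492 to 15519197 counts, of which ERCC spike-in RNA took 0.0857% to 0.544%. Summed gene counts per ERCC count were 550 ± 101, 403 ± 59.5 and 216 ± 28.5 in KD at 0, 1.5 and 3.5 h, against 970.5 ± 177, 644 ± 29.8 and 493 ± 78.3 in CTL (SD, n = 3 each). The spike-in was added after the RNA had been purified, so it does not measure RNA per cell. In bulk samples fewer cells of a type and less RNA per cell cannot be told apart. KD replicate 1 at 0 h stood apart from the other 2 libraries of its group, with a chi-square per degree of freedom over genes of 15.1 and 21.6 against them, where all other pairs of replicates lay between 1.39 and 6.99. For NAT10 and THUMPD1, fold changes (TMM scaling), decay slopes (ERCC scaling) and ratios that rest on this library are given with and without it. The same values under other scalings or models were fitted with it only. Of the 27 genes named below that were fitted at 0 h, 26 had the same call without it. All 12 pluripotency markers, POU5F1, SOX2 and NANOG among them, were counted in every library, and their summed level was 10808 to 12001 CPM in KD and 13055 to 14160 CPM in CTL. Of these 12, edgeR under TMM scaling called 0 higher and 9 lower in KD at 0 h. It called 2 and 8 at 1.5 h, and 4 and 4 at 3.5 h. Over all genes 23.8%, 28.4% and 35.0% were called higher at these times, and 28.3%, 26.2% and 26.4% lower. The summed level of 12 fibroblast markers was 1125 to 1563 CPM in KD and 618 to 956 CPM in CTL. FAP had no count in any library and COL3A1, DCN and LUM stayed at or below 0.374 CPM, while COL1A1, which alone ran from 128 to 1146 CPM, and THY1 were counted throughout. The fibroblast markers went both ways: of 8 that passed the filter on low counts, 4 were called higher and 3 lower in KD at 0 h, 4 and 4 at 1.5 h, and 3 and 4 at 3.5 h (edgeR, TMM scaling). The part of these marker differences in the results below was not tested.

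The transcripts of both genes are of like length but are built differently. The principal coding transcript of NAT10 in GENCODE v29 has 29 exons and 4002 bases, with 3078 bases of coding sequence and a 3′ UTR of 718 bases at 52.4% GC. That of THUMPD1 has 5 exons and 4122 bases, with only 1062 bases of coding sequence and a 3′ UTR of 2715 bases at 35.8% GC. In decay experiments, AU-rich elements built from ATTTA are classical marks of short-lived mRNAs, and they are shown because THUMPD1 was the shorter-lived of the pair. The THUMPD1 3′ UTR holds 6 copies of ATTTA, read on the transcript strand, and that of NAT10 holds 0. One of the 6 copies lies within TATTTAT, which occurs once. Across 13616 genes with a coding transcript, 64.3% hold at least 1 ATTTA in the 3′ UTR, whatever its length, and 28.6% hold TATTTAT. Per kb of 3′ UTR THUMPD1 has 2.21 copies, more than in 62.3% of those genes, and its 3′ UTR is longer than in 82.1% of them. The 5 copies outside TATTTAT and the 1 inside it are printed 5′ to 3′ with the motif in capitals, all on the minus strand of GRCh38 chromosome 16.
THUMPD1 ATTTA at chr16:20735948-20735968: agcaaattATTTAgtagcaga
THUMPD1 ATTTA at chr16:20735826-20735846: ataagttgATTTActgatgat
THUMPD1 ATTTA at chr16:20735396-20735416: aaagacccATTTAtgcaaaaa
THUMPD1 ATTTA at chr16:20734528-20734548: ctatgttcATTTAatggctag
THUMPD1 ATTTA at chr16:20734398-20734418: ctttacatATTTAgaatgtta
THUMPD1 TATTTAT at chr16:20734104-20734126: gtcttttaTATTTATttgtattt
A match is a description of the letters and not a shown site of binding.

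Mapping studies of ac4C in human mRNA have reported the mark around repeats of CNN, so the longest such run in each coding sequence is shown. Only the cytidine that opens each CNN unit is in capitals, and each printed stretch ends at the last of these cytidines. Both runs have 6 consecutive CNN units, counted from the transcript strand in any reading frame, and 59.1% of the 13616 genes have a run at least that long. No ac4C was measured in these files.
NAT10 coding bases 1285 to 1300, chr11:34130853-34130868, plus strand: CagCagCtcCgtCaaC
THUMPD1 coding bases 135 to 150, chr16:20741590-20741605, minus strand: CatCctCatCacCtgC

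NAT10 mRNA was low in every KD library, which checks the labels, since it is the gene the shRNA targets. The gene (ENSG00000135372) is protein-coding and lies on the plus strand of GRCh38 chromosome 11, 34105602 to 34147670. At 0 h its level was 20.4, 21.2 and 24.1 TMM-scaled CPM (a count relative to a library total that is scaled to the typical gene) in the KD libraries, against 208.7, 211.0 and 209.9 CPM in the CTL libraries. The groups did not overlap, and the highest KD library stood far below the lowest CTL library. The log2 fold change of KD over CTL was -3.26 ± 0.064 (approximate SE; edgeR quasi-likelihood test, adjusted p = 2.81e-21), which left 10.4% of the control level. Without KD replicate 1 it was -3.22. Among the 16760 genes tested it ranked 7 from the lowest fold change at 0 h.

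After 1.5 h of actinomycin D NAT10 stood at 18.8, 18.8 and 17.2 CPM in KD, against 222.8, 224.8 and 232.9 CPM in CTL. After 3.5 h it stood at 20.3, 18.2 and 19.1 CPM in KD, against 240.2, 239.8 and 250.3 CPM in CTL. Within KD every library at 0 h was above every library at the later times, while in CTL every library at 3.5 h was above every library at 0 h. The margin in KD was narrow, with 20.43 CPM in replicate 1 of 0 h against 20.32 CPM in replicate 1 of 3.5 h. The log2 fold change was -3.63 ± 0.066 at 1.5 h (adjusted p = 4.44e-22) and -3.66 ± 0.066 at 3.5 h (adjusted p = 3.90e-22, edgeR). The gap between the genotypes was wider at 3.5 h than at 0 h by -0.41 ± 0.090 on the log2 scale (edgeR interaction test, adjusted p = 9.96e-04), and by -0.45 without KD replicate 1 of 0 h. Of all genes tested, 12.5% had an interaction called in this direction.

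THUMPD1 mRNA fell too, by much less, at 0 and 1.5 h, and was not called at 3.5 h. The gene (ENSG00000066654) is protein-coding and lies on the minus strand of GRCh38 chromosome 16, 20702816 to 20742084. At 0 h its level was 64.7, 57.8 and 51.9 CPM in KD, against 85.3, 85.7 and 92.0 CPM in CTL. All KD libraries lay below all CTL libraries, and KD replicate 1, the library that stood apart, was the nearest to CTL. The log2 fold change was -0.59 ± 0.069 (edgeR, adjusted p = 1.62e-07), 66.3% of the control level, and -0.68 without that library. At 0 h 28.3% of all genes tested were called lower in KD and 9.34% had a lower fold change than THUMPD1, so both genes were among the many that fell, NAT10 at the extreme and THUMPD1 within the lower tail.

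At 1.5 h THUMPD1 stood at 54.0, 50.2 and 50.8 CPM in KD, against 75.9, 73.9 and 71.9 CPM in CTL, again with no overlap. The log2 fold change was -0.52 ± 0.071 (edgeR, adjusted p = 1.41e-06), in a comparison in which 26.2% of genes were called lower. At 3.5 h the levels were 36.0, 38.03 and 36.1 CPM in KD, against 33.4, 31.3 and 34.9 CPM in CTL. The KD libraries lay just above the CTL libraries, but the log2 difference of 0.15 ± 0.077 did not pass the test (edgeR, adjusted p = 0.105). At that time 26.4% of genes were called lower and 35.0% higher, and only NAT10 of the pair was called. The KD effect on THUMPD1 differed between 3.5 h and 0 h by 0.74 ± 0.103 on the log2 scale (edgeR interaction test, adjusted p = 5.27e-06), and by 0.83 without KD replicate 1 of 0 h. Of all genes tested, 24.3% were called in this direction, opposite to that of NAT10.

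**Figure D1:**
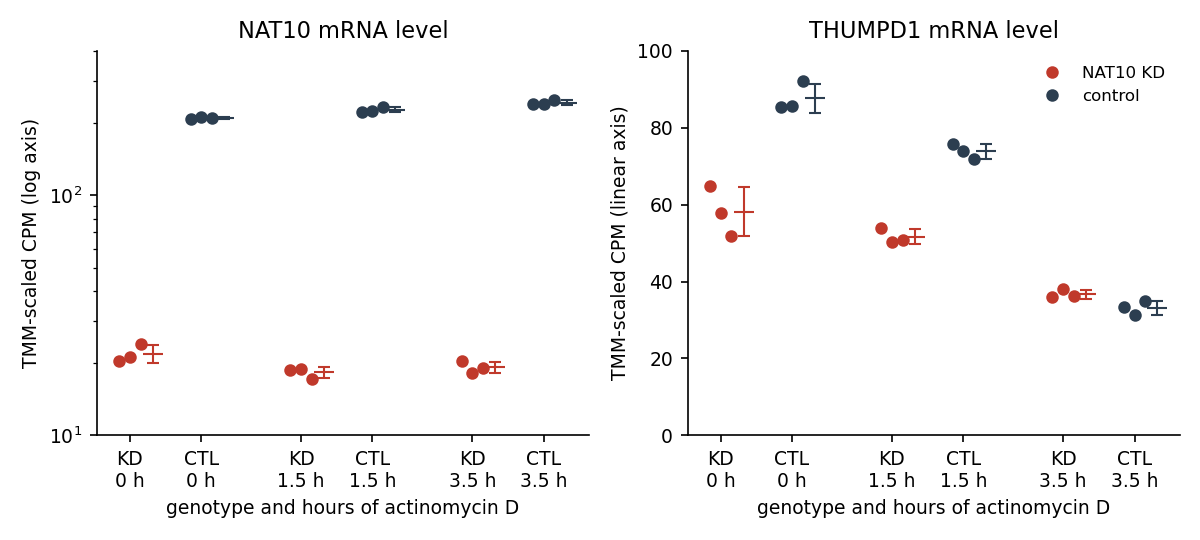
Level of NAT10 (left, log axis) and THUMPD1 (right, linear axis from 0) in TMM-scaled CPM by genotype and hours of actinomycin D; each point is 1 library, the bar beside each group is the mean ± SD (n = 3). NAT10 in KD stays between 17.2 and 24.1 CPM at every time, far below CTL, while THUMPD1 in KD starts below CTL and ends at 36.0 to 38.03 CPM, next to 31.3 to 34.9 CPM in CTL.

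These fold changes depend on what the libraries are scaled to. Scaled to ERCC, the median log2 fold change of all genes was -0.71, -0.52 and -0.98 at 0, 1.5 and 3.5 h, against -0.038, 0.026 and 0.080 under TMM. On the ERCC scale NAT10 had log2 fold changes of -3.94, -4.18 and -4.73. THUMPD1 had -1.24 (edgeR, adjusted p = 8.43e-09), -1.06 (adjusted p = 1.34e-06) and -0.91 (adjusted p = 1.56e-05), so at 3.5 h its direction flipped and it was called lower. The change in the KD effect between 3.5 and 0 h was then -0.79 for NAT10 (adjusted p = 0.0466) and 0.33 for THUMPD1 (adjusted p = 0.434, no longer called). At 3.5 h THUMPD1 was thus lower per ERCC in KD, by slightly less than the median gene.

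The balance between enzyme and adaptor mRNA was inverted in KD. The ratio of THUMPD1 to NAT10 counts per exonic base (6501 and 5242 bases) is taken within a library and needs no scaling between libraries. At 0 h it was 2.55, 2.197 and 1.74 in KD, against 0.330, 0.328 and 0.354 in CTL. At 1.5 h it was 2.32, 2.15 and 2.38 in KD, against 0.275, 0.265 and 0.249 in CTL, and at 3.5 h 1.43, 1.69 and 1.527 in KD, against 0.112, 0.105 and 0.112 in CTL. Every KD library thus held more THUMPD1 than NAT10 per base and every CTL library less. The mean log2 ratio was higher in KD by 3.20, or 9.18-fold (exact two-sided permutation test within times, p = 2.5e-04, the smallest that the 8000 arrangements allow). Leaving out KD replicate 1 of 0 h gave 3.15. NAT10 is the gene the shRNA targets, so this difference largely restates its fall, and its p is no separate result.

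With time the ratio fell in CTL, by 0.47 on the log2 scale per hour (exact two-sided permutation test over 9 libraries, p = 5.95e-04, the smallest that 1680 arrangements allow). In KD the slope was -0.14 per hour (exact two-sided permutation test, p = 0.0435). That call holds by a narrow margin. It was kept when KD replicate 3 of 0 h was left out, with a slope of -0.19 (exact p = 0.00714), and lost when any of the other 8 KD libraries was left out, with slopes of -0.15 to -0.11 and exact p of 0.0518 to 0.109. Without KD replicate 1 of 0 h, the slope was -0.12 (exact p = 0.0982). The difference between the slopes of the 2 genotypes was not tested.

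**Figure D2:**
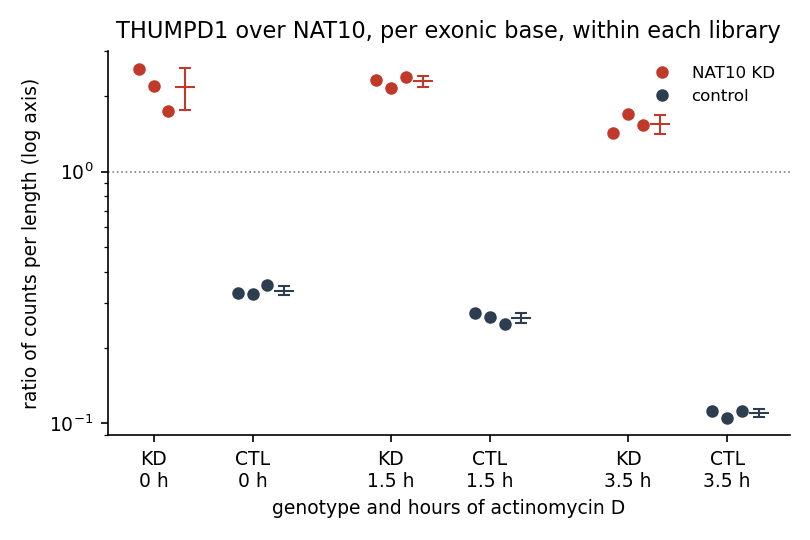
Ratio of THUMPD1 to NAT10 counts per exonic base in each library (log axis), by genotype and hours of actinomycin D, with the mean ± SD beside each group (n = 3) and a dotted line where both are equal. KD libraries lie between 1.43 and 2.55, above the line, and CTL libraries between 0.105 and 0.354, below it.

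The level of both transcripts fell after the block, THUMPD1 to lower shares of its 0 h level than NAT10 at 3.5 h. A decay slope is the change of the ERCC-scaled log2 level per hour of actinomycin D, over 0, 1.5 and 3.5 h. NAT10 was the slower of the pair in CTL, where 70.2%, 64.5% and 69.9% of the mean 0 h level was left in the libraries at 1.5 h and 44.7%, 61.2% and 53.4% at 3.5 h. In KD 61.5%, 50.2% and 61.6% of KD's own 0 h level was left at 1.5 h and 34.9%, 31.5% and 25.9% at 3.5 h. At 3.5 h the residual NAT10 transcript of every KD library was below that of every CTL library, each relative to its own start. The slope was -0.48 ± 0.060 in KD (edgeR, adjusted p = 3.54e-15) and -0.26 ± 0.056 in CTL (adjusted p = 8.65e-06), fitted half-lives of 2.07 h in KD and 3.90 h in CTL. The KD slope was -0.46 without KD replicate 1 of 0 h. Falling slopes were called for 97.5% of genes in KD and 79.6% in CTL, so a call alone says little of either gene.

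The slope of NAT10 was steeper in KD by -0.23 ± 0.080 per hour (edgeR genotype-by-time term, adjusted p = 0.0409), and 11.0% of genes were called in this direction, with a median difference of -0.10 over all genes. Without KD replicate 1 of 0 h the difference was -0.20 (edgeR, adjusted p = 0.0947). The call was lost in the same way when KD replicate 2 or 3 of 3.5 h, CTL replicate 2 or 3 of 0 h, CTL replicate 1 or 3 of 1.5 h or CTL replicate 2 or 3 of 3.5 h was left out. In these 9 fits the difference was -0.23 to -0.19 (edgeR, adjusted p = 0.0533 to 0.153). It was kept without any one of the other 9 libraries. With TMM in place of ERCC scaling, the NAT10 slope in CTL turned to 0.061 per hour (edgeR, adjusted p = 0.0106), and the slope in KD was -0.052 (adjusted p = 0.0878). The slope difference was then -0.11 and still called (adjusted p = 0.00805).

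THUMPD1 was a short-lived transcript in both genotypes. In KD 65.2%, 49.4% and 67.2% of the 0 h level was left at 1.5 h and 22.8%, 24.3% and 18.1% at 3.5 h. In CTL 57.3%, 50.7% and 51.7% was left at 1.5 h and 14.9%, 19.1% and 17.8% at 3.5 h. The ranges of KD and CTL overlapped at both times. The slope was -0.63 ± 0.061 in KD (edgeR, adjusted p = 7.12e-24) and -0.73 ± 0.061 in CTL (adjusted p = 3.43e-31), fitted half-lives of 1.58 h in KD and 1.37 h in CTL. The KD slope was -0.58 without KD replicate 1 of 0 h. Only 10.4% of genes in KD and 9.01% in CTL had a steeper slope. The difference of 0.094 ± 0.083 per hour did not pass the test under ERCC scaling (edgeR, adjusted p = 0.456), and a rising difference was called for 2.40% of genes. It was 0.14 without KD replicate 1 of 0 h (adjusted p = 0.282) and ran from 0.043, without KD replicate 3 of 0 h, to that value over the fits that left out 1 library each, none of which called it. Under TMM scaling, which asks how the gene moved against the typical transcript, it was 0.21 (adjusted p = 0.00162).

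**Figure D3:**
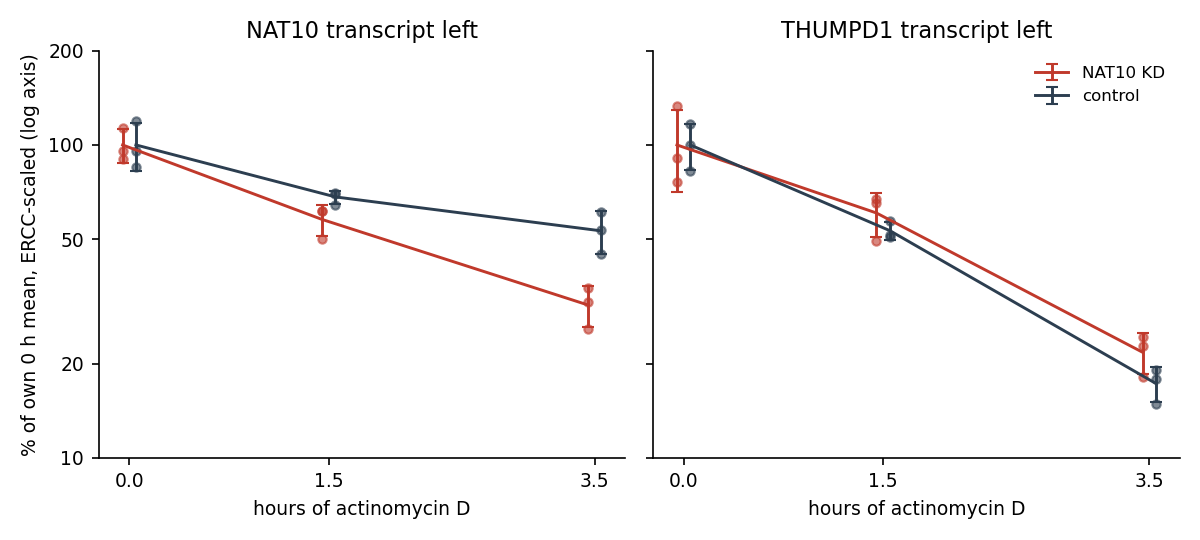
Share of each transcript left, in percent of the genotype's own 0 h mean on the ERCC scale (log axis), against hours of actinomycin D; points are libraries, lines join means and bars are SDs (n = 3). NAT10 ends at 30.8% in KD and 53.1% in CTL with no overlap, while THUMPD1 ends at 21.8% in KD and 17.3% in CTL with overlapping libraries.

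The authors' deposited table gives 1 half-life per gene and genotype, with no error. For NAT10 it lists 1.98 h in KD and 3.84 h in CTL, a log2 ratio of -0.96, and for THUMPD1 1.76 h in KD and 1.55 h in CTL, a log2 ratio of 0.18. The medians over the genes in the authors' deposited table were 2.57 h in KD and 3.06 h in CTL, with a median log2 ratio of -0.24. NAT10 therefore lay above the middle of the list in CTL, where 63.3% of genes had shorter half-lives, and below it in KD, where 19.6% did. THUMPD1 lay near the short end in both, with 10.8% of genes shorter in KD and 10.1% in CTL. In the authors' deposited table, genes with 6 or more ATTTA in the 3′ UTR, as THUMPD1 has, had median half-lives of 2.42 h in KD and 2.63 h in CTL (1992 genes). Genes with none, as NAT10 has, had medians of 2.71 h in KD and 3.74 h in CTL (2155 genes). The genes of both classes share the same libraries and differ in UTR length, so this is a description and was not tested.

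**Figure D4:**
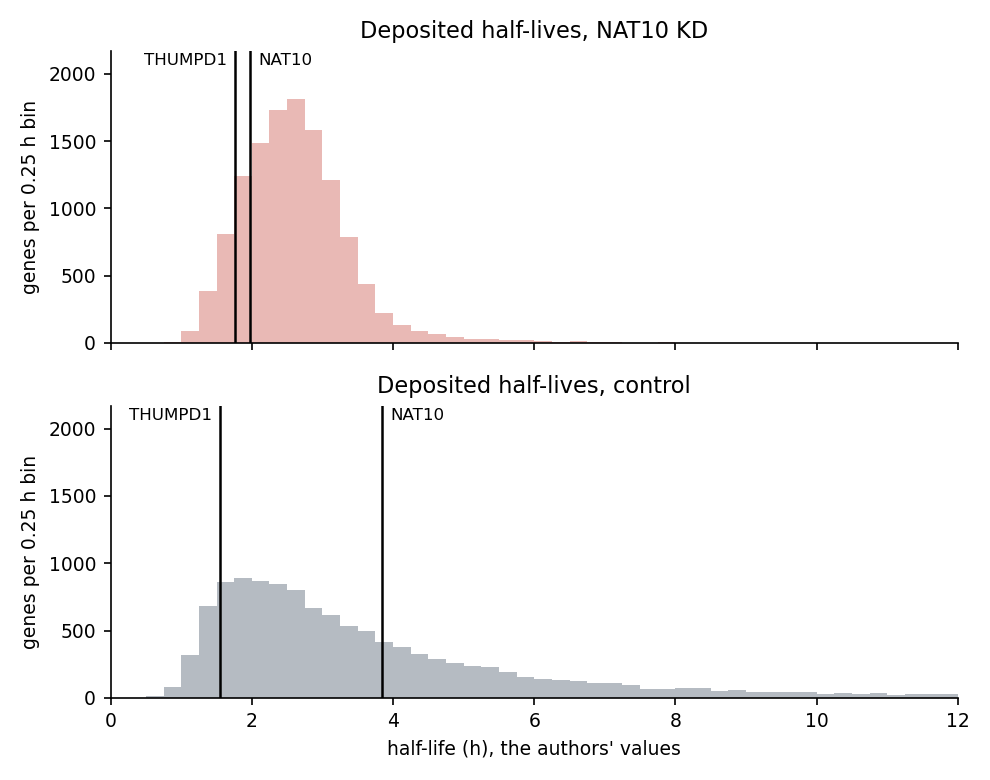
Number of genes by half-life in hours in the authors' deposited table, KD above and CTL below, with NAT10 and THUMPD1 as vertical lines; 21 genes in KD and 654 in CTL lie beyond the axis end of 12 h. NAT10 moves between the panels, to 1.98 h in KD against 3.84 h in CTL, while THUMPD1 stays at the short end, at 1.76 h in KD and 1.55 h in CTL.

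The close relatives and partners of the pair did not share 1 pattern. This list of 6 was THUMPD2, THUMPD3, TRMT11, TRMT112, SIRT7 and SNORD13, of which 5 passed the filter on low counts. At 0 h 4 fell and 1 rose, where 28.3% of all genes fell and 23.8% rose, and the list's median log2 fold change was -0.23 against -0.038 over all genes. At 1.5 h again 4 fell and 1 rose, and at 3.5 h 2 fell and 2 rose. The calls at 1.5 h compare with 26.2% of all genes lower and 28.4% higher, and those at 3.5 h with 26.4% lower and 35.0% higher. On the ERCC scale 0 rose and 4 fell at each time. Over all genes 64.1%, 49.7% and 71.7% fell and 5.58%, 8.20% and 4.71% rose at 0, 1.5 and 3.5 h. THUMPD3 was lower on that scale at 3.5 h, so its rise was relative to the typical transcript. SIRT7 was not called at any time on that scale. THUMPD2 and THUMPD3 carry the same kind of tRNA-holding domain as THUMPD1 and, unlike it, are methyltransferases. TRMT112 is the small activating subunit that these and TRMT11, a tRNA guanosine methyltransferase, work with.

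THUMPD3 was lower in KD at 0 h and higher at 3.5 h. Its level at 0 h was 50.2, 47.9 and 44.9 CPM in KD, against 57.8, 54.9 and 51.7 CPM in CTL, and at 3.5 h 38.9, 42.7 and 41.9 CPM in KD, against 30.5, 33.4 and 31.8 CPM in CTL. The groups did not overlap at either time, with log2 fold changes of -0.20 (edgeR, adjusted p = 0.0108) and 0.37 (adjusted p = 6.17e-05). THUMPD2 was lower at 0 h by a log2 fold change of -0.48 (edgeR, adjusted p = 0.00173) and stood at 0.032 at 3.5 h (adjusted p = 0.837). TRMT112 fell at each time, with 62.4 ± 2.87 CPM in KD and 97.8 ± 4.85 CPM in CTL at 0 h (SD, n = 3 each) and log2 fold changes of -0.65, -0.74 and -0.68. TRMT11 was also called lower at each time, with log2 fold changes of -0.23, -0.25 and -0.49 (edgeR, adjusted p = 0.0469, 0.0321 and 8.0e-05). The first of these was -0.40 without KD replicate 1. At 0 h its groups overlapped, with 29.9, 23.2 and 21.1 CPM in KD and 29.2, 27.9 and 30.2 CPM in CTL.

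SIRT7, a nucleolar deacetylase, was the partner that rose at each time under TMM scaling. Its level was 19.7 ± 4.09 CPM in KD and 14.4 ± 1.34 CPM in CTL at 0 h, and 20.4 ± 1.36 CPM in KD and 7.35 ± 0.61 CPM in CTL at 3.5 h (SD, n = 3 each). The log2 fold changes were 0.45 at 0 h (edgeR, adjusted p = 0.0026) and 1.48 at 3.5 h (adjusted p = 1.5e-09). On the ERCC scale the 0 h value turned to -0.24 and was not called (edgeR, adjusted p = 0.28). The sign stayed at the later times on that scale, again with no call. The values were 0.20 at 1.5 h (edgeR, adjusted p = 0.405) and 0.43 at 3.5 h (adjusted p = 0.0607). SNORD13, the small nucleolar RNA that guides NAT10 to its site in small-subunit ribosomal RNA, had 0 counts in every library. It is not polyadenylated, so poly(A) capture is not designed to measure it.

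Among RNA-modifying enzymes more genes were lower than higher in KD at 0 and 1.5 h, and more were higher at 3.5 h. Together with the partners, 11 ribosomal and 61 transfer RNA modification genes made a list of 78, of which 77 passed the filter. At 0 h 6 were higher and 30 lower in KD, at 1.5 h 7 higher and 35 lower, and at 3.5 h 34 higher and 16 lower. The higher calls compare with 23.8%, 28.4% and 35.0% of all genes, and the lower calls with 28.3%, 26.2% and 26.4%. The median log2 fold changes were -0.15, -0.19 and 0.18, against -0.038, 0.026 and 0.080 over all genes. The KD effect differed between 3.5 and 0 h for 41 genes in the rising and 4 in the falling direction, against 24.3% and 12.5% of all genes. Without KD replicate 1 the 0 h counts were 8 higher and 35 lower. The shares of all genes above come from the fit with that library, so these counts have no share beside them. On the ERCC scale 0 of the 77 were higher at each time and 72, 56 and 58 were lower, where 64.1%, 49.7% and 71.7% of all genes were lower.

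Of the ribosomal RNA enzymes, those with the smallest p at 0 h were DIMT1, DKC1 and BUD23. DIMT1, which dimethylates adenosines of small-subunit ribosomal RNA, had 24.9 ± 3.15 CPM in KD and 40.2 ± 1.26 CPM in CTL at 0 h (SD, n = 3 each). Its log2 fold change was -0.69 (edgeR, adjusted p = 5.1e-08). At 3.5 h it stood at 0.13 (adjusted p = 0.17), much as THUMPD1 did. DKC1, the pseudouridine synthase of box H/ACA particles, fell by a log2 fold change of -0.43 at 0 h. BUD23, a small-subunit rRNA methyltransferase that works with TRMT112, rose by 0.46 at 0 h (edgeR, adjusted p = 5.9e-07), but under ERCC scaling stood at -0.22 and was not called (adjusted p = 0.32).

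Of the tRNA enzymes, WDR4, METTL2B and ADAT2 had the smallest p at 0 h and fell at every time. WDR4, the partner of the guanosine methyltransferase METTL1, had 24.3 ± 2.37 CPM in KD and 44.6 ± 2.55 CPM in CTL at 0 h (SD, n = 3 each). Its log2 fold changes were -0.88, -0.80 and -0.74 at 0, 1.5 and 3.5 h. METTL2B, a tRNA cytidine methyltransferase, had -0.58, -0.57 and -0.61, and ADAT2, the catalytic subunit that deaminates adenosine at the tRNA wobble base, had -0.76, -0.52 and -0.77. METTL2B has a near-identical paralog, so its counts are uncertain.

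**Figure D5:**
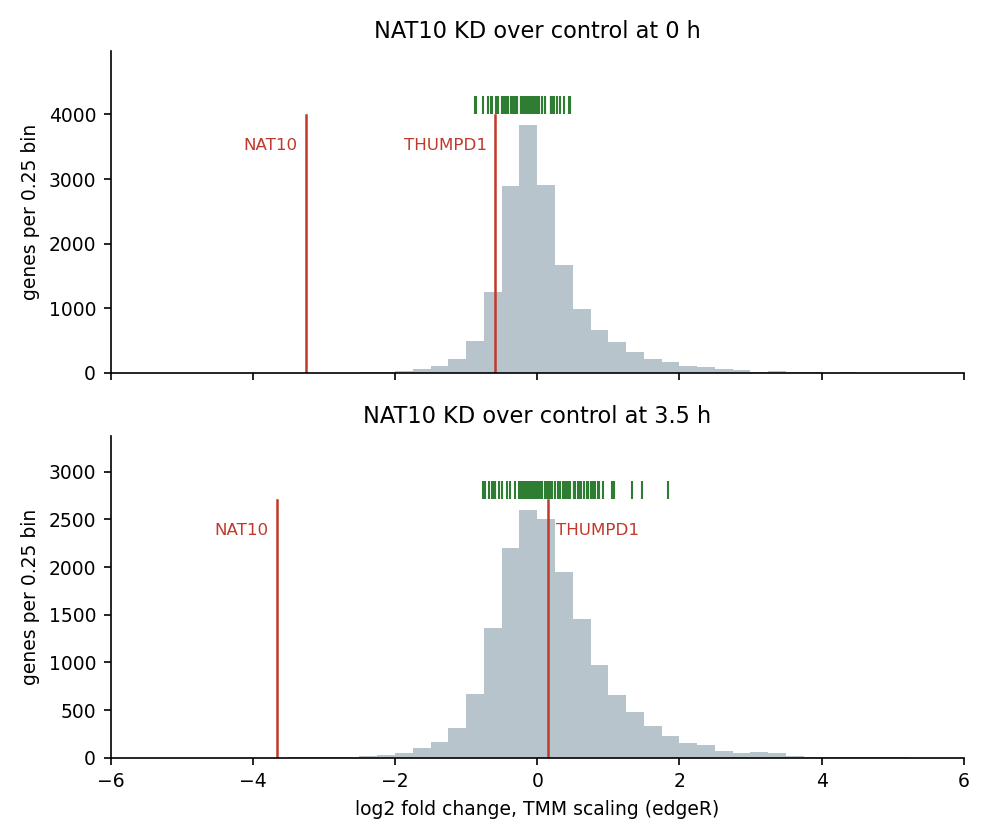
Number of genes by log2 fold change of KD over CTL under TMM scaling (bars, bins of 0.25) at 0 h (top) and 3.5 h (bottom), with NAT10 and THUMPD1 as red lines and the 77 modification genes as green ticks; 8 and 13 genes beyond ±6 are not drawn. NAT10 lies far left at both times, while THUMPD1 lies at -0.59 at 0 h and 0.15 at 3.5 h, in the lower tail at 0 h and near the middle at 3.5 h.

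Genes beside the pair were looked at because reads of neighbours or overlapping genes could be counted with it. CAPRIN1, an RNA-binding protein gene 4446 bases before NAT10 on the same strand, had 509 ± 48.4 CPM in KD and 665 ± 17.3 CPM in CTL at 0 h (SD, n = 3 each), and its log2 fold change was -0.39 (edgeR, adjusted p = 1.9e-06). ABTB2, 3318 bases beyond NAT10 on the opposite strand, had a log2 fold change of -0.28 at 0 h (adjusted p = 0.024, and -0.20 with adjusted p = 0.0732 without KD replicate 1) and 1.58 at 3.5 h (adjusted p = 2.1e-09). Neither fold change came near that of NAT10. Next to THUMPD1, ACSM1 had at most 4 counts in a library, and ERI2, a putative exonuclease gene 38109 bases away, had a log2 fold change of 0.01 at 0 h (adjusted p = 0.96) and 0.50 at 3.5 h (adjusted p = 0.0026).

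ACSM3, an acyl-CoA synthetase gene on the opposite strand, overlaps THUMPD1, and the strand setting of the counting is not given in the sources used here. ACSM3 had 14 to 70 counts in a library, against 431 to 1413 for THUMPD1. Its level was highest in CTL at 3.5 h, at 5.03, 5.08 and 4.65 CPM, where THUMPD1 stood at 33.4, 31.3 and 34.9 CPM. The log2 fold change of ACSM3 was -0.03 at 0 h (edgeR, adjusted p = 0.94) and -2.18 at 3.5 h (adjusted p = 3.6e-09). Whether reads of ACSM3 were counted with THUMPD1 was not tested. The other 2 overlapping entries had at most 2 counts. The processed pseudogene THUMPD1P1 had 6 counts over all 18 libraries, so few reads were assigned to this copy.

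Over the 18 libraries, the 5 genes with the highest Pearson correlation of log2 TMM-scaled CPM with NAT10 were MRPS27, ZDHHC22, CAMKV, MDFI and TSSC2, with r of 0.997 to 0.992, out of 10733 genes with a mean of at least 5 CPM. They share the step between the genotypes: MRPS27, a mitochondrial ribosomal protein gene, had 59.2 ± 0.831 CPM in KD and 147 ± 5.38 CPM in CTL at 0 h (SD, n = 3 each). ZDHHC22, of the palmitoyltransferase family, had 21.8 ± 1.77 CPM in KD and 104 ± 8.51 CPM in CTL. The 5 genes most like THUMPD1 were LRAT, BLM, ZBTB33, ANKRD17 and ROR1, with r of 0.993 to 0.986. LRAT, the enzyme that esterifies retinol, had 60.2 ± 7.53 CPM in KD and 114 ± 11.1 CPM in CTL at 0 h, and 31.8 ± 0.391 CPM in KD and 28.3 ± 1.69 CPM in CTL at 3.5 h, the same order of groups as THUMPD1. BLM, a DNA helicase gene, had log2 fold changes of -0.67 at 0 h and 0.36 at 3.5 h. Genes picked by this correlation follow the pattern of the member by the choice itself, so the shared pattern is no separate result.

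Under TMM scaling NAT10 and THUMPD1 were not much like each other, with Pearson r = 0.30, and THUMPD1 ranked 4207 by likeness to NAT10. Their correlation on the ERCC scale is not given here. These correlations come from 6 groups in 18 libraries and are given without a p. They depend on the measure. Of the 5 genes named for NAT10, 0 were also among the 5 by Spearman correlation and 1 on the ERCC scale, and of the 5 for THUMPD1, 2 and 3 were.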

How the data were processed

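Polyadenylated RNA of 18 H1 samples was sequenced. Unnormalised counts for genes and ERCC transcripts were deposited by the authors. The submitters' processing notes list featureCounts 2.0.3, SAMtools 1.12, HISAT2 2.2.1, fastp 0.21.1 and build hg38, with the strand setting and annotation release not given in the sources used here. A second table deposited by the authors holds a signal per gene and library, which equals the count times 1 factor per gene and 1 per library, half-lives in hours (another unit, with no error) and their log2 ratio, as deposited. Refitting an exponential decay to the signal gave the deposited half-lives of NAT10 and THUMPD1.

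Symbols came from the gene name table, and coordinates, transcripts and sequences from GENCODE v29 (GRCh38). Counts were tested with edgeR 4.0.16 (R 4.3.3) quasi-likelihood tests in 1 fit to all 18 libraries, with Benjamini-Hochberg adjustment over the 16760 genes left by filterByExpr (45100 removed) and a threshold of 0.05. KD against CTL and its change with time used TMM scaling, and decay slopes used summed ERCC counts. Common biological variation came to 6.29% (TMM) and 17.0% (slope fit). SEs are approximate, taken from the fold change and the F statistic. The tests were also run on simulated counts with changes of known size. Those counts held no error of the ERCC totals shared by all genes of a library, so they cannot check that part. Alternatives were the other scaling, DESeq2 1.42.0, no filter, fewer samples in the fit, the replicate number as a block, other time models and leaving out each library. Named genes were both members, their partners, the 3 genes of each modification list with the smallest p at 0 h, the nearest coding genes and the 5 genes most like each member. Genes overlapping a member lie outside this rule and were added later. The members and lists were chosen with earlier results of these data known.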

Additional observations from a re-analysis of the deposited data

Results flagged for a closer look

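Effects of the knockdown that differed between times or genotypes by a test of the difference itself were looked at again. The effect of the knockdown on NAT10 was larger at 3.5 h than at 0 h, by a log2 difference of -0.41 (edgeR interaction test, adjusted p = 9.96e-04). The effect on THUMPD1 moved the other way, by 0.74 (edgeR interaction test, adjusted p = 5.27e-06). The decay slope of NAT10 differed between KD and CTL by -0.23 per hour (edgeR genotype-by-time term, adjusted p = 0.0409).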

How the results depend on the processing

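Across the alternatives NAT10 was lower in KD at each time, and THUMPD1 at 0 and 1.5 h, on the same side of the threshold. ERCC scaling in place of TMM turned THUMPD1 at 3.5 h to -0.91 and took its change between 3.5 and 0 h to 0.33, below the threshold. It left 0 modification genes higher at 0, 1.5 and 3.5 h, and 72, 56 and 58 lower, where 64.1%, 49.7% and 71.7% of all genes were lower. TMM in place of ERCC gave a NAT10 decay slope in KD of -0.052, no longer past the threshold, a NAT10 decay slope in CTL of 0.061, with the sign reversed, and a THUMPD1 slope difference of 0.21, now past it. The NAT10 slope difference lost its call with 1.5 h against 0 h only (-0.16, edgeR adjusted p = 0.99997) and without the count filter (-0.23, adjusted p = 0.0881). With 1.5 h against 0 h only, 0 of 16760 genes had a slope difference called lower and 4 higher. The median difference over all genes was then 0.11, so the lost call there says little of NAT10. A fit to the 1.5 h libraries alone called 12 modification genes higher, where 5145 of the 15510 genes tested in that fit were called higher. The cause of these changes was not tested. Leaving out 1 library at a time gave NAT10 slope differences of -0.27 to -0.19 (9 of 18 kept the call) and a ratio slope in KD of -0.19 to -0.11 (1 of 9 kept it). Deviations from the group mean in KD and CTL libraries of the same number had correlations of -0.57 to 0.51. Libraries of different numbers were not compared, so this cannot decide whether the numbers pair the samples. With the replicate block, the NAT10 fold change at 0 h was -3.26 and its slope difference -0.23 (edgeR, adjusted p = 0.0413), and no call of the results named here changed. With 3 libraries a group, counts of 270 to 411 limit NAT10 in KD, and the spread of ERCC counts limits the slopes.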
